A study of Mus musculus with 24 samples.

Results

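The Nr4a genes Nr4a1, Nr4a2 and Nr4a3 encode the NR4A family of orphan nuclear receptors, and all 3 were taken by symbol from the 49568 gene symbols listed for each hippocampal library of Aged mice. The mice were male, on a C57BL/6J background, and were either wild-type (WT) or homozygous for a knock-in point mutation that inactivates the N-terminal kinase domain of MSK1 in every cell that makes the protein (MSK1 KD), with the WT and mutant mice bred as separate lines. From 18 months of age they lived in standard cages or in enriched housing, which was a large rat cage with a running wheel, toys and tubes, and hippocampal RNA was taken at 21 to 23 months from mice that had done no behavioural test. There were thus 4 groups of 6 mice, WTSH and WTEE for WT mice in standard and in enriched housing and KDSH and KDEE for the MSK1 KD mice in the same conditions, with 1 poly(A) library from the hippocampus of each mouse. The study left out WTSH mice 4 and 7 and KDSH mouse 6 for ribosomal RNA contamination and low correlation, so 21 libraries entered the tests (4 WTSH, 6 WTEE, 5 KDSH and 6 KDEE), and the left-out libraries are given apart.

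Nr4a receptors bind DNA as transcription factors without a known physiological hormone, so their activity is set largely by how much of them a cell makes. In neurons they are immediate early genes. Synaptic activity and calcium entry drive kinases that phosphorylate the transcription factor CREB, and CREB bound at cAMP response elements (CREs) switches on their transcription within minutes to hours. MSK1 is 1 of these CREB kinases, lies downstream of the BDNF receptor and ERK, and also phosphorylates histone H3. In other cell types the induction of Nr4a genes depends on MSK kinases. Nr4a2 (Nurr1) is also known for the development and upkeep of midbrain dopamine neurons, and in the hippocampus all 3 receptors have been linked to the consolidation of memory.

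All 3 genes are protein coding in the GENCODE M21 annotation of GRCm38 and overlap no other annotated gene. Nr4a1 (ENSMUSG00000023034) lies at chr15:101254269-101274795 on the plus strand and has 4 annotated transcripts. Nr4a2 (ENSMUSG00000026826) lies at chr2:57106830-57124003 on the minus strand and has 6. Nr4a3 (ENSMUSG00000028341) lies at chr4:48045153-48086447 on the plus strand and has 4. The gene models hold 3509, 4059 and 5987 bases of exon, respectively.

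The promoters are shown because they are the stretch of DNA through which CREB is known to act on these genes. Each line gives the 250 bases before the RefSeq start site (GRCm38.p6), 5′ to 3′ on the strand of the gene, with every CRE half-site (TGACG on either strand, so TGACG or CGTCA as printed) in capitals. The regions are chr15:101266596-101266845 on the plus strand for Nr4a1, chr2:57124004-57124253 on the minus strand for Nr4a2 and chr4:48045055-48045304 on the plus strand for Nr4a3.
Nr4a1: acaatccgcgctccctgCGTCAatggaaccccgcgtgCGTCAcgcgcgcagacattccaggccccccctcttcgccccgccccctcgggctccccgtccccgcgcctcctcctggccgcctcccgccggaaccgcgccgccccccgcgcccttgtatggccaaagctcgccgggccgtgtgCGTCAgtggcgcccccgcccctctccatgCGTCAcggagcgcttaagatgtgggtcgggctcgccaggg
Nr4a2: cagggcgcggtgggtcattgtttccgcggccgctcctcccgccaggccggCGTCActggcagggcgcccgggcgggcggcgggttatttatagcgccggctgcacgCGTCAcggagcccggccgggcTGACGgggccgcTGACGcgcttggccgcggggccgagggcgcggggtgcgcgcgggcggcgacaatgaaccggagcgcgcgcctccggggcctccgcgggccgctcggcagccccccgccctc
Nr4a3: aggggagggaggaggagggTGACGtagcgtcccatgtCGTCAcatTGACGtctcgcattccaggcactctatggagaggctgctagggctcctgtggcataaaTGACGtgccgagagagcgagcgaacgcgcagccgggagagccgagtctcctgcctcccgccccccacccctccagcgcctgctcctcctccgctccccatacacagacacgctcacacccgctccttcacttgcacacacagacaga
Each promoter held 4 half-sites. RefSeq gave 32817 promoter windows, each made of the 250 bases before the start site and the 50 bases that begin with it. Of these windows, 20.8% held at least 1 half-site and 76 (0.232%) held 4 or more. In Nr4a1 all 4 were on the strand opposite to the gene, with their first bases 233, 213, 69 and 40 bases before the start site, and all 4 were part of the longer form TGACGCA, which 2.11% of the windows held at all. No other window held 3 or more copies of TGACGCA. In Nr4a2 the half-sites began 200, 144, 123 and 111 bases before the start site, and in Nr4a3 231, 213, 205 and 147 bases before it. The full palindromic CRE (TGACGTCA, which holds the half-site on both strands, in 1.79% of windows) and the NBRE to which NR4A monomers bind (AAAGGTCA, in 1.51% of windows) were in none of the 3 windows. The motifs were chosen after these promoters had been read. They say where letters match and nothing of what was bound in these mice.

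**Figure D1:**
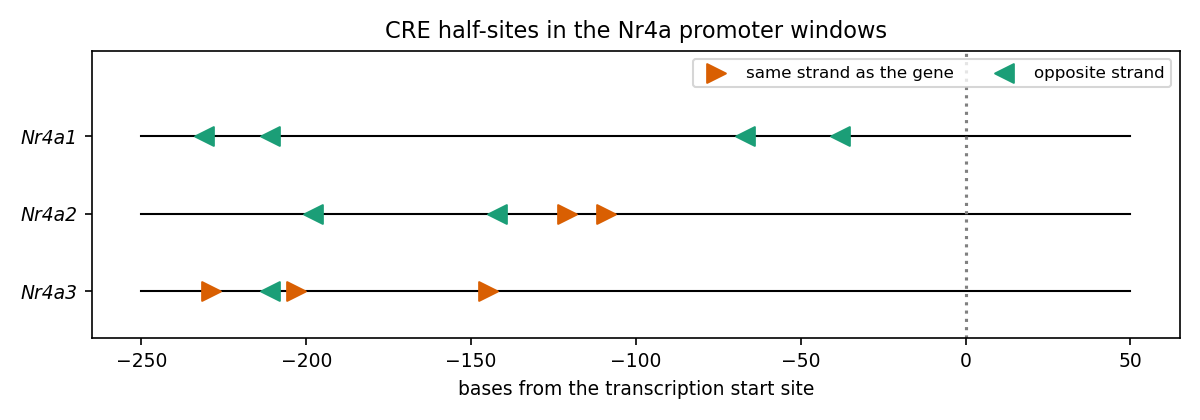
Position of each CRE half-site in the promoter windows of the Nr4a genes, in bases from the RefSeq start site (dotted line), with arrowheads for the strand. Each gene holds 4, all of them upstream of the start site, and those of Nr4a1 are all on the opposite strand.

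The 21 libraries held 27410239 to 71907130 read pairs counted on genes (median 47549989), and the left-out libraries 15800187 to 39585901. The raw counts were 2839 to 7744 for Nr4a1, 1808 to 5590 for Nr4a2 and 2136 to 5663 for Nr4a3, so counting error was small beside the spread between mice. Levels are given as CPM, the counts per 1000000 counted read pairs after TMM normalization, which scales each library so that most genes are level. Excitatory neuron markers of the hippocampus were present in every library, with a summed level of 4208 to 7234 CPM over the 10 markers in the 21 libraries. The lowest of these values was in WTEE, where the median was 6285 CPM, and no library of the other groups was below 5885 CPM. The labels do not give the litter, cage or sequencing lane of a mouse. Mice 1 to 8 were all standard-housed and mice 9 to 17 all enriched, with both housings among mice 18 to 24. Whether these numbers follow the order of handling is not stated, so housing cannot be fully told apart from such an order. The paper allocated housing by whole cages that held several males each. The p values measure the spread between mice and take each mouse as independent, so they cannot separate housing from cage. In these pieces of whole tissue, fewer cells of a type and less RNA per cell cannot be told apart. The mutation is a change of the coding sequence that need not alter the amount of mRNA, so the level of Rps6ka5, the gene of MSK1, does not check the genotype. It was 23.3 ± 2.10 CPM in WTSH (SD, n = 4), 21.7 ± 3.95 in WTEE (n = 6), 24.1 ± 0.456 in KDSH (n = 5) and 23.7 ± 0.571 in KDEE (n = 6).

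All 3 receptors were well expressed in the Aged hippocampus, and over the 21 libraries together Nr4a1 had the highest mean and the widest spread. Nr4a1, also known as Nur77, was measured at 134.6, 61.4, 87.7 and 124.3 CPM in WTSH mice 2, 5, 19 and 23. In KDSH mice 1, 3, 8, 18 and 24 it was 97.9, 128.8, 88.9, 74.9 and 127.4 CPM. The 6 WTEE mice ran from 85.5 to 129.6 CPM with a median of 104.5, and the 6 KDEE mice from 60.5 to 106.7 with a median of 91.0. The highest and the lowest WTSH mouse differed 2.19-fold, and every group overlapped every other. The group means were 102 ± 33.7, 104 ± 16.4, 104 ± 23.9 and 87.4 ± 18.9 CPM in WTSH, WTEE, KDSH and KDEE (SD).

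Nr4a2 was measured at 88.8, 82.6, 53.8 and 107.4 CPM in WTSH mice 2, 5, 19 and 23. In KDSH mice 1, 3, 8, 18 and 24 it was 69.1, 73.3, 98.0, 69.2 and 85.8 CPM. The WTEE mice ran from 48.5 to 96.5 CPM with a median of 69.7, and the KDEE mice from 64.8 to 77.1 with a median of 71.3. The WT groups held both the lowest and the highest mice, and all groups overlapped. The means were 83.1 ± 22.2, 71.5 ± 15.8, 79.1 ± 12.6 and 71.4 ± 5.13 CPM in WTSH, WTEE, KDSH and KDEE.

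Nr4a3, also known as Nor1, was measured at 107.9, 92.5, 84.0 and 91.1 CPM in WTSH mice 2, 5, 19 and 23. In KDSH mice 1, 3, 8, 18 and 24 it was 93.2, 113.3, 83.9, 71.6 and 89.3 CPM. The WTEE mice ran from 55.9 to 92.4 CPM with a median of 75.9, and the KDEE mice from 67.8 to 82.4 with a median of 73.4. Here 4 of the 6 WTEE mice were below the lowest WTSH mouse, and all 6 KDEE mice were below the median of KDSH, although the groups still overlapped. Of all genes tested, 0.505% were lower in WTEE than in WTSH mice with no overlap, and 0.936% in KDEE than in KDSH mice. Nr4a3 did not meet this stricter criterion in either pair. The share of all genes that met the looser counts given here for Nr4a3 was not taken. The means were 93.9 ± 10.1 CPM in WTSH and 90.2 ± 15.2 in KDSH against 76.6 ± 14.2 in WTEE and 74.3 ± 4.92 in KDEE. The spread within a group was narrowest in the KDEE mice for Nr4a2 and Nr4a3, with coefficients of variation of 7.19% and 6.62% against 22.1% and 18.5% in WTEE, a difference in spread that was not tested.

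**Figure D2:**
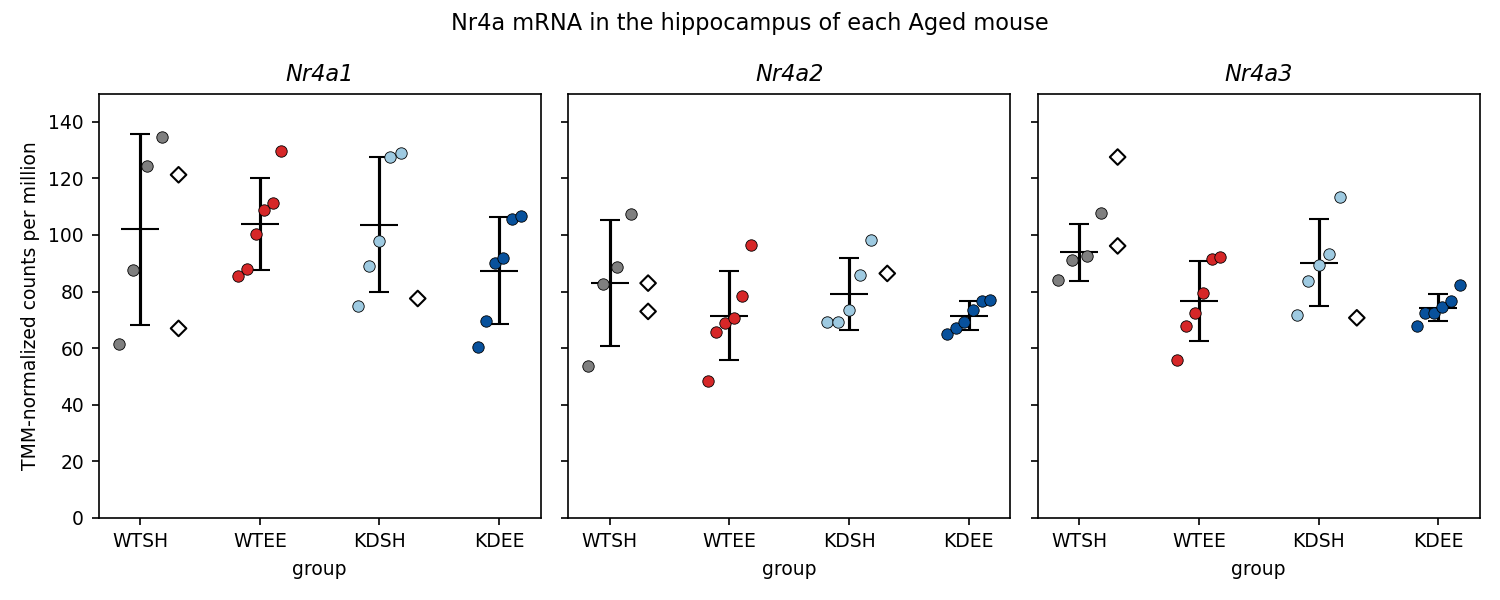
CPM of each Nr4a gene in each mouse by group, with 1 filled point per library, the mean (wide dash) and SD (error bar) of the 21 libraries used in the tests, and the left-out libraries as open diamonds, scaled over all 24 libraries. The groups overlap for all 3 genes, and for Nr4a3 the enriched means (76.6 and 74.3 CPM) lie below the standard-housed means (93.9 and 90.2 CPM).

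To compare levels between genes, CPM were divided by the exon bases of each gene in kilobases. Per kilobase, the mean level over the 21 libraries was 28.1 ± 6.34 CPM for Nr4a1, 18.6 ± 3.48 for Nr4a2 and 13.8 ± 2.30 for Nr4a3. This order held within 17 of the 21 libraries. In 2 libraries Nr4a3 was above Nr4a2, and in 2 others Nr4a2 was above Nr4a1. Among 18 nuclear receptor genes set side by side, the Nr4a genes ranked 3rd, 6th and 8th per kilobase. Nr4a1 was next to the clock receptor Nr1d1 (29.2 ± 5.39 CPM per kilobase), which it did not differ from beyond the spread, and Nr4a2 was next to the retinoid X receptor Rxrb (19.1 ± 1.28). Nr4a3 was within its own SD of Nr2f1, a receptor that patterns the cortex and hippocampus (12.2 ± 1.25), and of the glucocorticoid receptor Nr3c1 (11.8 ± 1.04). The thyroid hormone receptor Thra was far above all of them at 189 ± 12.8 CPM per kilobase.

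The mouse-to-mouse variation was large for genes of this abundance. The biological coefficient of variation estimated by edgeR within groups was 21.8% for Nr4a1, above that of 98.3% of 948 genes of like level. It was 17.7% for Nr4a2, above 95.03% of 1146 such genes, and 13.7% for Nr4a3, above 83.2% of 1083. The value of the trend at this abundance was 11.6%.

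The first question was whether enriched housing changed the receptors. A gene was called changed at the thresholds of the study, a Benjamini-Hochberg adjusted p value under 0.05 over all genes tested and an absolute log2 fold change over 0.38, in the quasi-likelihood test of edgeR with the 4 groups in 1 model. None of the Nr4a genes passed it in any comparison, and nearly no gene did. Of 20187 genes tested, 1 (0.00495%) was called between enriched and standard-housed mice over both genotypes, the immunoglobulin heavy chain gene Ighm (named after its value was seen), whose log2 fold change was 0.58. None (0%) was called between WTEE and WTSH or between KDEE and KDSH. At an unadjusted p under 0.05, 3816 (18.9%), 1322 (6.55%) and 2345 (11.6%) genes differed in these comparisons, and the Wald test of DESeq2 called 41, 2 and 14.

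Nr4a3 had the lowest p values of the family for housing. Its log2 fold change was -0.29 (SE 0.12, 95% interval -0.55 to -0.04) from WTSH to WTEE, with an unadjusted p of 0.0264 in edgeR and an adjusted p of 0.651. From KDSH to KDEE it was -0.28 (SE 0.12, -0.52 to -0.04), with an unadjusted p of 0.0249 and an adjusted p of 0.396. The WT and KD estimates come from separate mice. Over both genotypes the log2 fold change was -0.29 (SE 0.08, -0.46 to -0.11), that is a level 0.820 times that of standard-housed mice, at an unadjusted p of 0.00273 and an adjusted p of 0.19 in edgeR. In the exact two-sided permutation test of mean log2 CPM the p value was 0.0762 in WT mice, 0.0281 in MSK1 KD mice and 0.00436 over both genotypes with mice permuted within genotype, or 0.0785 for the last after adjustment over the 18 exact tests made on the family. The lower level of Nr4a3 with enrichment therefore did not pass the adjustment over all genes or over the family. With each library left out in turn, the unadjusted p of Nr4a3 in edgeR ran from 0.000786 to 0.0103 over both genotypes, from 0.00923 to 0.11 in WT and from 0.00629 to 0.119 in MSK1 KD mice, with the fold change below 0 each time. The lowest Nr4a3 value of the 21 libraries, 55.9 CPM, was that of WTEE mouse 10, which also had the lowest Nr4a2 value (48.5 CPM). The paper kept this sample but describes it as more variable than the others of its group. In the ranking of all genes by p over both genotypes Nr4a3 was number 288, among the 9.13% of genes that were lower at an unadjusted p under 0.05.

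The estimates for Nr4a2 and Nr4a1 were smaller over both genotypes. Nr4a2 had a log2 fold change of -0.22 (SE 0.16) from WTSH to WTEE, -0.15 (SE 0.15) from KDSH to KDEE and -0.18 (SE 0.11, 95% interval -0.41 to 0.05, unadjusted p = 0.114, adjusted p = 0.347 in edgeR) over both genotypes. Nr4a1 had values of 0.03 (SE 0.20) in WT and -0.25 (SE 0.19) in MSK1 KD mice, and -0.11 (SE 0.14, -0.40 to 0.18, unadjusted p = 0.435, adjusted p = 0.655) over both. These intervals still hold changes of the size seen for Nr4a3. In this fit they leave out a rise of Nr4a1 with enrichment over both genotypes by more than a log2 of 0.18 and of Nr4a2 by more than 0.05. The Nr4a2 values rested on single mice more than those of Nr4a3. With each library left out in turn, Nr4a2 over both genotypes ran from -0.26 (unadjusted p = 0.0149 in edgeR, without WTSH mouse 19) to -0.11 (without WTSH mouse 23), and from WTSH to WTEE from -0.38 to -0.07 without the same mice. For Nr4a1 over both genotypes the range was -0.20 (without WTSH mouse 5) to -0.03 (without WTSH mouse 2).

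Genes of 2 other sources of RNA moved with housing beside Nr4a3. The 5 blood genes (haemoglobins and Alas2) were all higher in enriched mice at an unadjusted p under 0.05, with a median log2 fold change of 1.46, against 9.77% of all genes higher at that level. Their summed level was 54.7 to 70.6 CPM in WTSH and 36.1 to 75.1 in KDSH against 54.7 to 383 in WTEE and 70.6 to 237 in KDEE. Of the 7 choroid plexus genes 6 were higher in enriched mice at an unadjusted p under 0.05, against 9.77% of all genes. The sum of the 7 was 28.3 to 4298 CPM in WTSH, 44.4 to 5819 in WTEE, 24.7 to 102 in KDSH and 85.0 to 9508 in KDEE, and no marker of either list was at 0 in all libraries. The median of this sum was 71.7 CPM in WTSH and 72.6 in WTEE, against 40.7 in KDSH and 111 in KDEE. The choroid plexus medians thus differed with housing in MSK1 KD mice and hardly in WT mice. WTSH mouse 19, WTEE mice 10 and 13 and KDEE mice 12 and 14 had over 1000 CPM of choroid plexus genes. Without these 5 libraries the log2 fold change of Nr4a3 over both genotypes was -0.26 (unadjusted p = 0.00699, adjusted p = 0.219 in edgeR). With the log2 level of the choroid plexus genes as a covariate it was -0.23 (unadjusted p = 0.0127), and from KDSH to KDEE -0.19 (unadjusted p = 0.125). With that of the blood genes as a covariate the value over both genotypes was -0.34 (unadjusted p = 0.00551). Nr4a2 moved more in these fits. Without the 5 libraries its log2 fold change was -0.21 over both genotypes (unadjusted p = 0.0334, adjusted p = 0.306 in edgeR) and -0.30 from WTSH to WTEE (unadjusted p = 0.0382, adjusted p = 0.923). With the choroid plexus covariate it was -0.07 over both genotypes (unadjusted p = 0.505) and 0.01 from KDSH to KDEE. Nr4a1 over both genotypes was -0.03 with that covariate. Of the 12 markers of subiculum, deep cortex and claustrum 2 were higher in enriched mice at an unadjusted p under 0.05, and of the 10 hippocampal neuron markers 1 was higher and 1 lower. Of 4 endothelial markers 2 were higher, of the 5 microglial and myeloid markers tested 1 was higher, and of the 5 pituitary and 7 structural RNA genes tested none differed at that level. The part of these lists in the Nr4a3 values was not tested beyond these fits.

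The second question was whether the kinase activity of MSK1 mattered for the level of the receptors. No difference beyond the spread between mice was found for any of the 3. In standard housing the log2 fold change from WTSH to KDSH was 0.02 (SE 0.21) for Nr4a1, -0.07 (SE 0.17) for Nr4a2 and -0.06 (SE 0.13) for Nr4a3. In enriched housing that from WTEE to KDEE was -0.25 (SE 0.18, 95% interval -0.62 to 0.13, unadjusted p = 0.181, adjusted p = 0.957 in edgeR) for Nr4a1, 0.00 (SE 0.15, -0.30 to 0.30) for Nr4a2 and -0.04 (SE 0.11, -0.27 to 0.19) for Nr4a3. Over both housings the values were -0.11 (SE 0.14, -0.40 to 0.17), -0.04 (SE 0.11, -0.27 to 0.19) and -0.05 (SE 0.08, -0.23 to 0.13). The summed level of the structural RNA genes differed between groups, with medians of 6716 CPM in WTEE, 2143 in KDEE, 828 in WTSH and 2951 in KDSH. It ran from 3816 to 13807 CPM in WTEE and from 348 to 8659 in KDEE. With the log2 level of structural RNA as a covariate the Nr4a1 value was -0.14 (unadjusted p = 0.485 in edgeR) from WTEE to KDEE and -0.05 over both housings. With each library left out in turn, Nr4a1 over both housings ran from -0.20 (without WTSH mouse 5) to -0.03 (without WTSH mouse 2). The smallest exact two-sided permutation p of the 3 genes in these comparisons was 0.158, for Nr4a1 between KDEE and WTEE, where 2 of the 6 KDEE mice were below the lowest WTEE mouse. These data thus leave room for a loss of Nr4a1 in MSK1 KD mice of up to 0.40 on the log2 scale over both housings, and of Nr4a3 of up to 0.23. Of all genes edgeR called none (0%) in any genotype comparison. At an unadjusted p under 0.05 there were 202 (1%) between KDSH and WTSH, 1007 (4.99%) between KDEE and WTEE and 383 (1.9%) over both housings, and DESeq2 called 0, 118 and 0.

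The third question was whether the effect of enrichment differed between genotypes, which is the interaction. It was -0.27 for Nr4a1 (SE 0.28, 95% interval -0.85 to 0.30, unadjusted p = 0.337 in edgeR), 0.07 for Nr4a2 (SE 0.22, -0.39 to 0.53, unadjusted p = 0.754) and 0.01 for Nr4a3 (SE 0.17, -0.34 to 0.37, unadjusted p = 0.937), and each adjusted p was 0.9999. The estimates for Nr4a3 were thus nearly the same in both genotypes, with an interval that reaches past the size of either. No gene was called (0%), 659 (3.26%) differed at an unadjusted p under 0.05 and DESeq2 called 20.

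**Figure D3:**
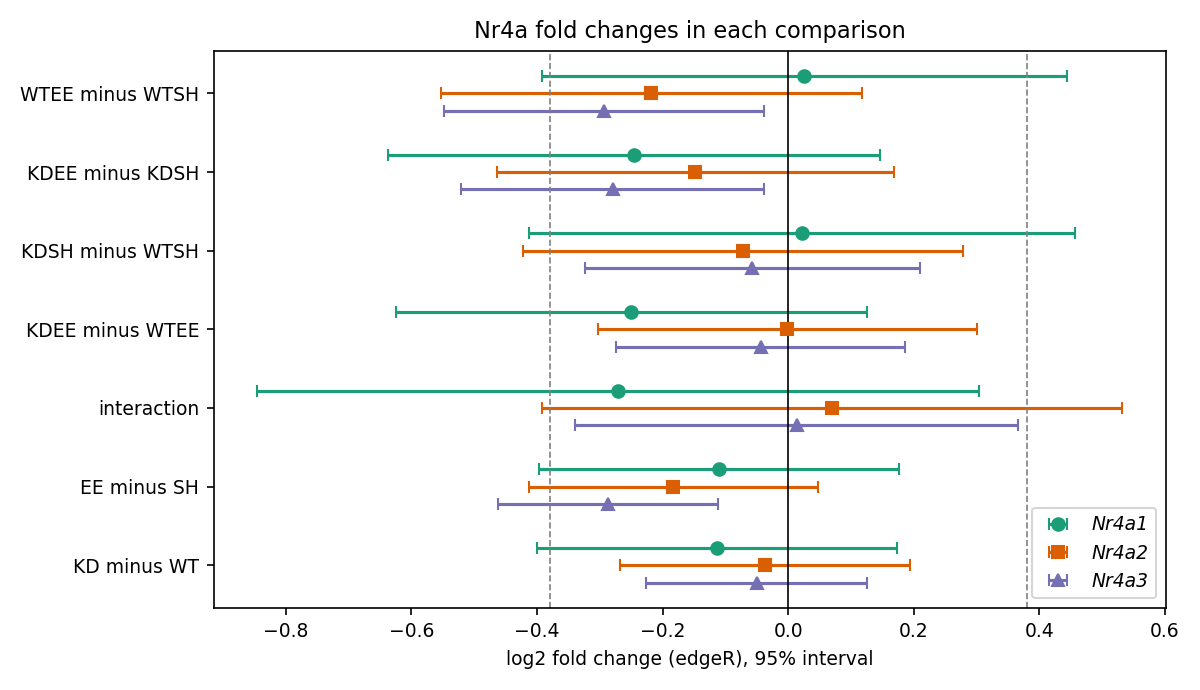
Log2 fold change of each Nr4a gene in each comparison (edgeR, 21 libraries), with its 95% interval; dashed lines mark the fold threshold of 0.38 and the interaction is (KDEE minus KDSH) minus (WTEE minus WTSH). Of these intervals only the 3 of Nr4a3 for housing (WTEE minus WTSH, KDEE minus KDSH and EE minus SH) do not reach 0.

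Within groups, the receptors varied with the immediate early genes of each mouse to different degrees. After the mean of its group was subtracted from the log2 CPM of each mouse, Nr4a1 correlated with Arc, an immediate early gene whose protein acts at synapses, with Pearson's r = 0.97 and Spearman's rho = 0.97 over 21 mice. The permutation p of both was 1e-05, the smallest that 100000 permutations within groups can give (6e-05 after adjustment over the 12 relations computed). With Fos, a subunit of the AP-1 transcription factor, r was 0.93 and rho 0.93 (permutation p = 1e-05 for both), and with Egr1, a zinc finger transcription factor, r was 0.79 (permutation p = 0.00014) and rho 0.82 (permutation p = 0.00019). Without the 2 mice farthest from the median of the second gene these values of r were 0.95, 0.90 and 0.78. Within the 6 WTEE mice and the 6 KDEE mice alone, r between Nr4a1 and Arc was 0.98 and 0.97.

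Nr4a3 correlated with Arc less closely, with r = 0.67 (permutation p = 0.00062, adjusted 0.00178) and rho = 0.71 (permutation p = 0.00126), and with r = 0.79 without the 2 farthest mice. With the group means left in, r was 0.49. With Egr1 its r was 0.52 (permutation p = 0.0248, adjusted 0.0497), rho 0.57 (permutation p = 0.0161), and r without the 2 farthest mice 0.35. With Fos its r was 0.42 (permutation p = 0.0348, adjusted 0.0597) and its rho 0.55 (permutation p = 0.0135, adjusted 0.0269). Nr4a2 had no relation that passed the adjustment. Its r was 0.37 with Arc (permutation p = 0.209), 0.20 with Fos (permutation p = 0.562) and 0.53 with Egr1 (permutation p = 0.0791, rho = 0.54, permutation p = 0.0339, adjusted 0.0509), and rho with Arc was 0.37 and with Fos 0.30 (permutation p = 0.154 and 0.245).

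Between the receptors, Nr4a1 and Nr4a3 varied together with r = 0.63 (permutation p = 0.00074, adjusted 0.00178) and rho = 0.69 (permutation p = 0.00105). Without the 2 mice farthest from the median of Nr4a1 their r was 0.72. For Nr4a1 and Nr4a2 r was 0.39 (permutation p = 0.152) and rho 0.44 (permutation p = 0.0789). For Nr4a2 and Nr4a3 r was 0.49 (permutation p = 0.056), rho 0.37 (permutation p = 0.154), and r without the 2 mice farthest from the median of Nr4a2 0.22. In the WTEE mice all 3 pairs had r between 0.84 and 0.91, while in the KDEE mice r was 0.03 for Nr4a1 with Nr4a2, 0.66 for Nr4a1 with Nr4a3 and 0.21 for Nr4a2 with Nr4a3. The values of 6 mice each are a description, and the difference between the groups was not tested. WTEE mouse 10, which had over 1000 CPM of choroid plexus genes, was the lowest WTEE mouse for all 3 receptors (-0.27, -0.53 and -0.43 from the group mean for Nr4a1, Nr4a2 and Nr4a3). The values of r in WTEE without this mouse were not taken.

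**Figure D4:**
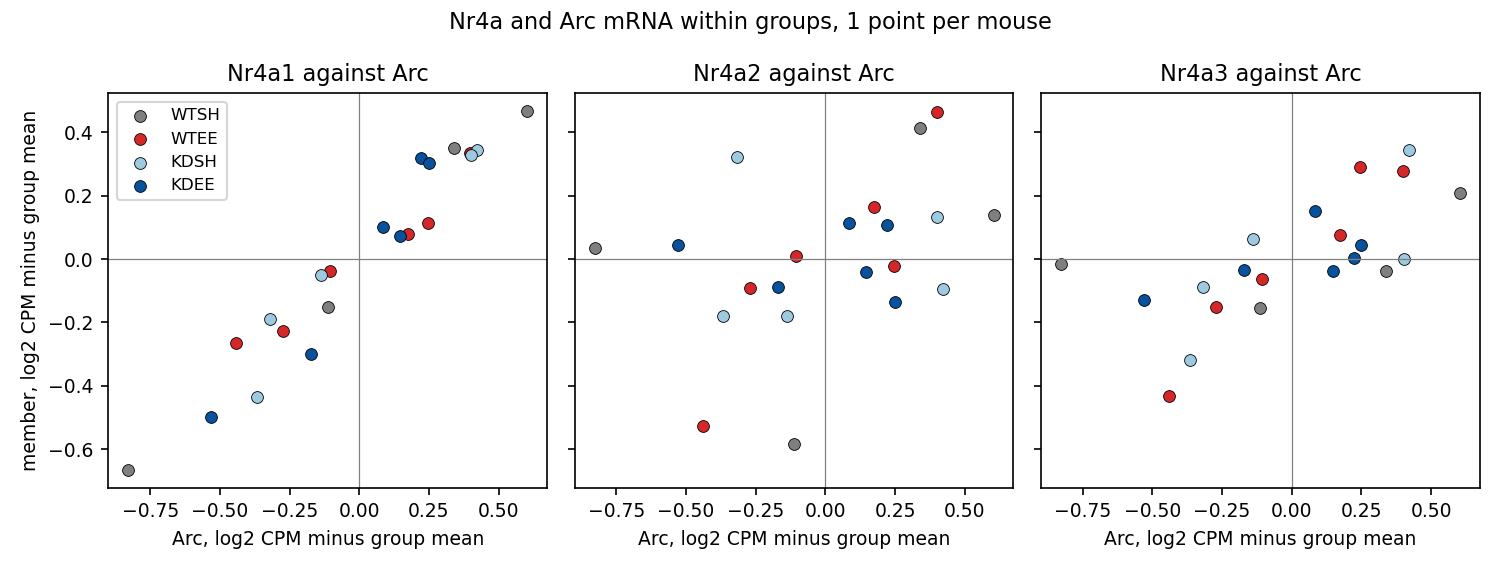
Log2 CPM of each Nr4a gene against that of Arc, both with the mean of the group of the mouse subtracted, 1 point per mouse and 21 mice. Nr4a1 lies along a line with Arc (r = 0.97), Nr4a3 follows it more loosely (r = 0.67) and Nr4a2 scatters (r = 0.37).

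The genes most like each receptor across mice were found among 14993 tested genes whose mean was 50 counts or more, by Pearson's r of the same group-centred values over the 21 mice. For Nr4a1 they were Arc (0.97), the zinc finger factor Egr2 (0.96), Fos (0.93), the AP-1 subunit Junb (0.88) and the ERK phosphatase Dusp6 (0.88). For Nr4a3 they were the oxysterol binding protein gene Osbpl7 (0.88), the Rab GTPase gene Rab36 (0.87), the RNA polymerase I subunit gene Polr1b (0.87), the splicing factor kinase gene Clk3 (0.86) and Zswim4 (0.86). For Nr4a2 they were the microtubule binding protein gene Map6 (0.91), Tbc1d8 (0.91), Rap1gap2 (0.88), the metabotropic glutamate receptor gene Grm2 (0.88) and Gramd4 (0.87). Thus all 5 of the genes nearest to Nr4a1, and none of those nearest to the other two, were on the list of 42 activity genes of neurons. Of these 42, 18 were in the top 1% of all compared genes for likeness to Nr4a1, 4 for Nr4a3 and 1 for Nr4a2, and the median r was 0.47, 0.34 and 0.27, against 0.02, 0.01 and 0.03 over all genes. The mice, libraries and depth are shared by all these points.

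The list of activity genes was compared with the receptors under housing. None of the 42 was called in any comparison by edgeR. Over both genotypes 3 were higher and 4 lower in enriched mice at an unadjusted p under 0.05, against 9.77% of all genes higher and 9.13% lower. Of the list, 23 of 42 (54.8%) had a log2 fold change below 0, against 48.1% of all genes. The median of the list was -0.03, against 0.01 over all genes. Fos differed by -0.05 (SE 0.20), Arc by 0.00 (SE 0.16), Egr1 by -0.16 (SE 0.11), Junb by 0.04 (SE 0.14), Npas4, a neuronal activity factor, by -0.10 (SE 0.18) and the neurotrophin gene Bdnf by 0.06 (SE 0.06). Homer1, a postsynaptic scaffold gene named after its values were seen, had a log2 fold change of -0.40 (SE 0.09, unadjusted p = 0.000429, adjusted p = 0.174 in edgeR), and -0.43 in WT and -0.36 in MSK1 KD mice. DESeq2 called it with an adjusted p of 0.0283, and edgeR did over all 24 libraries with an adjusted p of 0.044. The other genes lower at an unadjusted p under 0.05 were Inhba (-0.57), Fosb (-0.32) and Fosl2 (-0.28), and those higher were Gadd45g (0.25), Atf3 (0.23) and Rgs2 (0.16), also named after their values were seen.

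**Figure D5:**
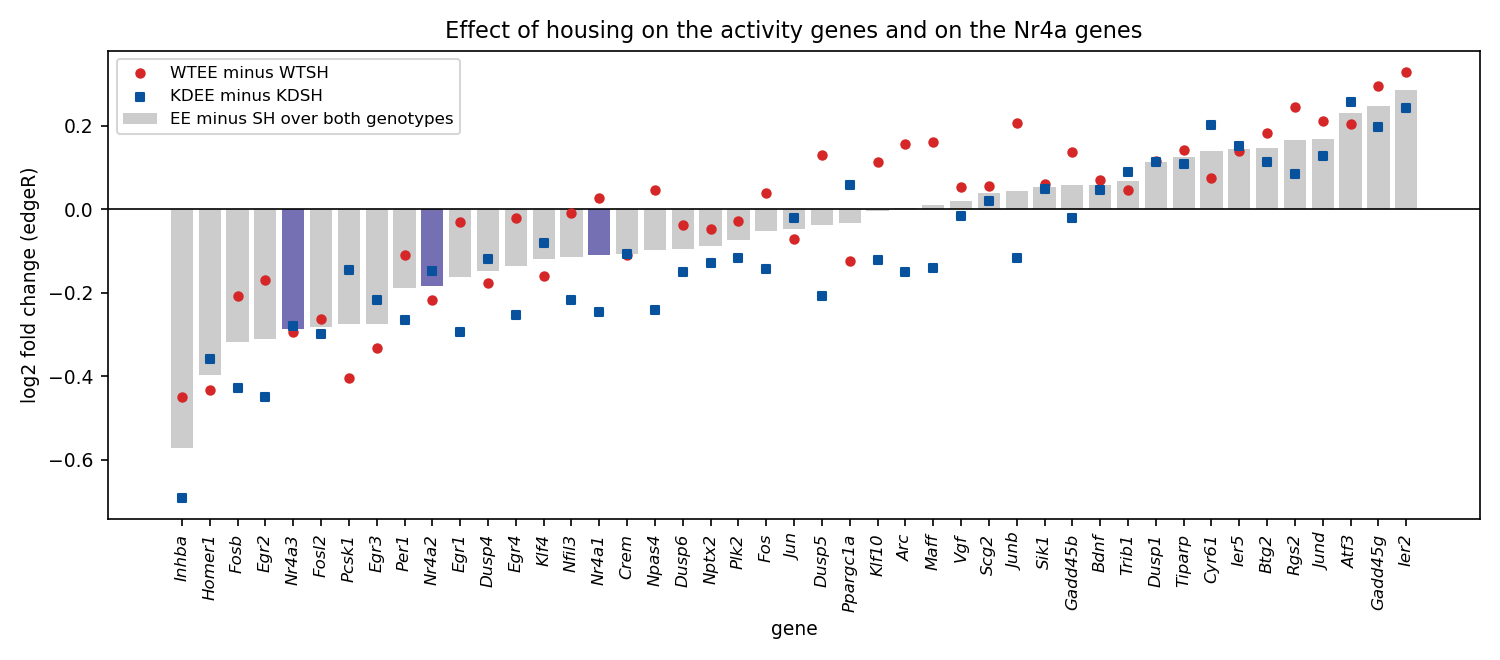
Log2 fold change with housing of the 42 activity genes (grey bars) and the Nr4a genes (purple bars) over both genotypes, with the values from WTSH to WTEE (red circles) and from KDSH to KDEE (blue squares). Bars run from -0.57 for Inhba to 0.29 for Ier2, Nr4a3 is at -0.29, and no gene shown was called by edgeR.

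In the genotype comparisons most activity genes lay slightly below WT. Of the 42, 32 (76.2%) had a log2 fold change below 0 from WT to MSK1 KD mice over both housings, against 50.1% of all genes, with a median of -0.07. In enriched mice the number was 33 (78.6%, against 49.5%), with a median of -0.12, and in standard-housed mice 28 (66.7%, against 50.1%). At an unadjusted p under 0.05, 5 were lower and none higher over both housings, against 1.14% of all genes lower. Among them were Bdnf at -0.15 (SE 0.06, unadjusted p = 0.0126 in edgeR) and Fos at -0.42 (SE 0.20, unadjusted p = 0.0439), both with an adjusted p of 0.9996. Fos was 33.4 ± 16.3 CPM in WTSH, 34.3 ± 7.25 in WTEE, 26.5 ± 7.72 in KDSH and 24.003 ± 6.62 in KDEE. Arc differed by -0.10 (SE 0.16), Junb by -0.19 (SE 0.14), Npas4 by -0.02 (SE 0.18) and Egr1 by 0.06 (SE 0.11). The 3 comparisons share mice, and activity genes vary together within a mouse, so the counts are not independent.

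Of the genes that act on Nr4a transcription, the 18 upstream kinases, CREB factors, coactivators, MEF2 factors and histone deacetylases, none was called by edgeR. Over both genotypes 5 were lower and none higher in enriched mice at an unadjusted p under 0.05, against 9.13% of all genes lower and 9.77% higher. Creb1, which encodes CREB itself, was 51.6 ± 3.28 CPM in WTSH and 50.8 ± 3.35 in KDSH against 46.8 ± 3.94 in WTEE and 47.2 ± 2.03 in KDEE, a log2 fold change of -0.12 (SE 0.04, unadjusted p = 0.0108, adjusted p = 0.214 in edgeR). The CREB coactivator gene Crtc1 differed by -0.14 (SE 0.08) and Rps6ka5 by -0.06 (SE 0.07). From WT to MSK1 KD mice none of the 18 differed at an unadjusted p under 0.05 over both housings, against 1.9% of all genes.

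Partners and described targets of the receptors were looked at last. Of the 7 genes for retinoid X receptors, which pair with Nr4a1 and Nr4a2, and for corepressors none was called by edgeR. Over both genotypes 2 were lower in enriched mice at an unadjusted p under 0.05, against 9.13% of all genes. Rxra differed by -0.03 (SE 0.08) and Rxrg by -0.04 (SE 0.09). Of 12 endoplasmic reticulum chaperone genes, which have been described as effectors of Nr4a in hippocampal memory, none was called. None of them differed with housing at an unadjusted p under 0.05, against 18.9% of all genes. Hspa5 (BiP) differed by 0.09 (SE 0.12) and Pdia6, a disulphide isomerase gene, by 0.04 (SE 0.10). Of the 12, 2 (16.7%) were below 0, against 48.1% of all genes, and the median was 0.07 against 0.01. Of 6 genes of dopamine neurons that Nr4a2 is known to drive in the midbrain, none was called by edgeR, and 2 were higher with enrichment at an unadjusted p under 0.05, against 9.77% of all genes. Some of these genes were near the floor. Group means were 0.284 to 0.325 CPM for Slc6a3 and 0.806 to 1.17 for Th, against 36.4 to 49.3 for Aldh1a1. Of the 12 other nuclear receptors none was called, and none differed with housing at that level, against 18.9% of all genes. Nr3c1 differed by -0.05 (SE 0.05) and Nr2f1 by 0.01 (SE 0.07).

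The left-out libraries were set apart by their structural RNA. The summed level of the 9 structural RNA genes was 298221 CPM in WTSH mouse 4, 304675 in WTSH mouse 7 and 57904 in KDSH mouse 6, against 348 to 25731 in the other 21 libraries. Scaled over all 24 libraries, Nr4a1 was 121 CPM in WTSH mouse 4, 67.0 in WTSH mouse 7 and 77.5 in KDSH mouse 6, and Nr4a2 was 73.0, 83.0 and 86.4 CPM, all within the range of the 21 libraries on that scale. Nr4a3 was 127.5, 96.1 and 70.7 CPM. The value of WTSH mouse 4 was above the highest of the 21 libraries on the same scale (109.8 CPM). With all 24 libraries the log2 fold change of Nr4a3 was -0.39 (unadjusted p = 0.00327, adjusted p = 0.246 in edgeR) from WTSH to WTEE, -0.23 (unadjusted p = 0.0701, adjusted p = 0.508) from KDSH to KDEE and -0.31 (unadjusted p = 0.00127, adjusted p = 0.0755) over both genotypes.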

How the data were processed

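Poly(A) RNA of the hippocampus was sequenced in 24 libraries of 1 mouse each. Before deposit, the authors trimmed reads (Skewer), mapped them on GRCm38 (STAR 2.5) and counted unique alignments per gene symbol without regard to strand with HTSeq (0.6.1p1), and deposited these raw counts without normalization. FastQC (0.11.3) is also named in the submitters' processing notes. The 5 summary lines of HTSeq, which name no gene, held 13.1% to 21.3% of the counts in the 21 libraries used and 25.8% to 50.2% in the left-out ones, and were removed. PCR copies cannot be told apart.

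The main test was edgeR's quasi-likelihood test (edgeR 4.0.16, R 4.3.3), run on TMM-normalized libraries after its default filter on low counts, with 21 libraries in 4 groups and no covariates. Intervals cover 95%. Log2 CPM used a prior count of 2. Exact two-sided permutation tests and correlations used numpy 2.4.6, scipy 1.17.1 and pandas 2.3.3, and figures matplotlib 3.10.9. Exon lengths came from GENCODE M21, in which 47206 (95.2%) of the symbols matched 1 gene, and promoters from RefSeq, which held all 3 receptors. On simulated counts in which 200 of 19899 genes were given a log2 difference of 1 between WTEE and WTSH, 182 (91%) were recovered among 184 calls, and 0 genes were called between KDEE and KDSH, where nothing was changed. The changed genes were drawn from those above a floor on the mean count. Differences as small as those estimated for the Nr4a genes were not simulated, so the recovery does not speak to them.

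The members and lists were chosen with earlier results of these data known. The genes named are the receptors, Fos, Egr1, Arc, Junb, Npas4, Bdnf, Rps6ka5, Creb1, Crtc1, Rxra, Rxrg, Hspa5, Pdia6, Nr3c1 and Nr2f1, any listed gene that was called, and the 5 genes most like each receptor, with other genes marked as named after their values were seen or given for level only. Alternatives were DESeq2 1.42.0, its size factors in edgeR, no filter, a filter of 10 counts in every library, a robust fit, only the groups compared, all 24 libraries, and each library left out. Leaving out choroid-rich libraries and adding blood, choroid plexus or structural RNA levels as covariates were chosen after seeing the data.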

Additional observations from a re-analysis of the deposited data

Results flagged for a closer look

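Among the 3 libraries left out of the main tests, Nr4a3 in WTSH mouse 4 stood out, with 127.5 CPM scaled over all 24 libraries against at most 109.8 CPM in the other 21 libraries on that scale. This library held 298221 CPM of structural RNA. In the 12 groups of values tested (3 receptors in 4 groups), no single mouse lay apart from the rest of its group by Dixon's criterion, which chance alone meets in about 1 of 20 groups.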

How the results depend on the processing

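No paired analysis was possible because each mouse number occurs in 1 group only. No receptor was called under any alternative. The log2 fold change of Nr4a3 over both genotypes ran from -0.34 to -0.23 over the 10 other settings (adjusted p 0.0755 to 0.596) and from -0.32 to -0.23 with each library left out (adjusted p 0.0823 to 0.373). Depth did not limit these values, and the spread between mice did.

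The number of genes called moved with the tool. DESeq2 called 41 genes for EE minus SH, 118 for KDEE minus WTEE, 20 for the interaction, 14 for KDEE minus KDSH and 2 for WTEE minus WTSH. With all 24 libraries edgeR called 15 for EE minus SH and 1 for WTEE minus WTSH, and with only the groups compared 1 for KDEE minus KDSH. With blood or structural RNA as a covariate it called 0 for EE minus SH. With each library left out it called 0 to 6 for EE minus SH (0 without WTSH mouse 5 or 19, 2 without KDEE mouse 20 or KDSH mouse 18, 6 without WTEE mouse 21 and 1 otherwise) and 0 to 1 for WTEE minus WTSH (1 without WTEE mouse 13). Among the activity genes 1 was called for EE minus SH by DESeq2 and 1 with all 24 libraries. The correlation of Arc and Nr4a3 was 0.49 without removing group means. The causes were not tested.

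Some values changed sign, none of them called in any setting. For Nr4a1, KDSH minus WTSH was -0.010 with all 24 libraries, -0.042 with choroid plexus as a covariate and -0.044 without the choroid-rich libraries, and WTEE minus WTSH was -0.077 with structural RNA as a covariate. For Nr4a2, KDEE minus KDSH went from -0.15 to 0.013 with choroid plexus as a covariate, and KDEE minus WTEE was 0.0047 with blood and 0.027 with choroid plexus as a covariate. With each library left out, Nr4a1 ran from -0.16 to 0.18 for KDSH minus WTSH and from -0.15 to 0.19 for WTEE minus WTSH, reaching -0.16 and -0.15 without WTSH mouse 5. Nr4a2 ran from -0.12 to 0.037 for KD minus WT, -0.089 to 0.10 for KDEE minus WTEE, -0.23 to 0.073 for KDSH minus WTSH and -0.071 to 0.24 for the interaction. Nr4a3 ran from -0.12 to 0.017 for KDEE minus WTEE, -0.15 to 0.016 for KDSH minus WTSH and -0.060 to 0.11 for the interaction.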

Other observations

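The balance between the receptors was read as the log2 ratio of their raw counts in the same library, which needs no scaling between libraries. Nr4a1 over Nr4a3 was 0.06 ± 0.46 in WTSH (SD, n = 4), 0.45 ± 0.12 in WTEE (n = 6), 0.18 ± 0.19 in KDSH (n = 5) and 0.21 ± 0.28 in KDEE (n = 6), with no test made. Nr4a2 over Nr4a3 was -0.21 ± 0.36, -0.11 ± 0.18, -0.19 ± 0.34 and -0.06 ± 0.13 in the same groups. In raw counts, Nr4a1 exceeded Nr4a3 in every WTEE library (0.27 to 0.61) and every KDSH library (0.06 to 0.51), and the ratio ran from -0.59 to 0.45 in WTSH and from -0.16 to 0.52 in KDEE. Per kilobase of exon, Nr4a1 was above Nr4a3 in all 21 libraries.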
